A study of Mus musculus with 48 samples.

Results

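Ucp3, Angptl4 and Pdk4 were followed with 6 further genes known as targets of the peroxisome proliferator-activated receptors (PPARs), Acot1, Acot2, Cpt1a, Plin2, Plin5 and Ucp2, in RNA from mouse cardiomyocytes. The 9 genes were taken by name from the 30743 gene rows of the count table, and all 9 passed the filter on low counts in both sets of libraries. They had been chosen with results of these libraries known, chiefly the differences between C3H_WT and C3Hn-C57mt and between C57n-C3Hmt and C57_WT. Those 2 contrasts, and the difference between ACF and sham surgery, are therefore described below with no p for a member.

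The mice carried the nuclear genome of an inbred strain, C57BL/6J (C57) or C3H, with the mitochondrial genome of the same strain (wild type) or of the other (mitochondrial-nuclear exchange, MNX). Animals had sham or ACF surgery, labelled as 3 days, in a study of volume overload, and cardiomyocytes were isolated by collagenase digestion of hearts freed of right ventricle and atria. The 48 libraries formed 2 sets of 24. In set A the titles name the surgery, with 3 libraries in each of C57_wt, C3H_wt, C57_MNX and C3H_MNX after sham and after ACF. In set B, which is labelled sham throughout, there were 6 libraries each of C3H_WT (C3H nucleus and mitochondria), C3Hn-C57mt (C3H nucleus, C57 mitochondria), C57_WT (C57 nucleus and mitochondria) and C57n-C3Hmt (C57 nucleus, C3H mitochondria). For the MNX libraries of set A the title and the genotype tag disagree on the nucleus: C3H_MNX titles carry the tag C57n:C3Hmt and C57_MNX titles the tag C3Hn:C57mt. Over 33 genes higher in every C3H-nucleus library of set B, a score that is 0 at the C57-nucleus mean of set B and 1 at its C3H-nucleus mean was 0.73 to 0.86 in the C3H titles and -0.15 to -0.02 in the C57 titles. Set A groups are named here by title. The labels give no age and do not say whether each library came from 1 animal, so the p-values rest on variation among libraries that may be technical.

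PPARs are nuclear receptors that bind fatty acids and, with a retinoid X receptor (RXR) partner, switch on genes of lipid handling. In cardiac muscle PPAR alpha and PPAR delta carry much of this programme, which rises in fasting and when fatty acid supply is high. Its targets include carriers of the inner mitochondrial membrane (Ucp3, Ucp2), the kinase that shuts down pyruvate dehydrogenase (Pdk4), the secreted inhibitor of lipoprotein lipase (Angptl4), the outer membrane enzyme that commits fatty acids to mitochondrial import (Cpt1a), cytosolic and mitochondrial acyl-CoA thioesterases (Acot1, Acot2) and lipid droplet coat proteins (Plin2, Plin5).

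RefSeq promoter windows (GRCm38.p6, from 250 bases before to 50 after each start; the count table was made on mm9) were found for 8 of the 9 genes. The 250 bases before the start are shown for Ucp3, Pdk4 and Plin2, 3 members that were highest of the C3H nucleus in libraries 17 and 18 of set B. Capitals mark AGGTCA, the core site of the PPAR response element, or its reverse complement, and the windows are chr7:100472741-100472990 (plus strand), chr6:5496279-5496528 (minus strand) and chr4:86670060-86670309 (minus strand), each written 5′ to 3′ in the direction of transcription.
Ucp3: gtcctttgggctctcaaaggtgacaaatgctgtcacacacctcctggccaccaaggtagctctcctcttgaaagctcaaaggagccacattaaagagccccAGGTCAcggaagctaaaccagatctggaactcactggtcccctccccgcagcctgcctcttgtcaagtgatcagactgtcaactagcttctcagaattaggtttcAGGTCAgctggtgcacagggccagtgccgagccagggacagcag
Pdk4: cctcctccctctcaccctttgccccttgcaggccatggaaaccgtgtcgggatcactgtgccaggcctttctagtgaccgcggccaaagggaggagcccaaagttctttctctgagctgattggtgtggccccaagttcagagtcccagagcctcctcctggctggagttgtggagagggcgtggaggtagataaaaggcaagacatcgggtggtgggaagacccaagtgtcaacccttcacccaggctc
Plin2: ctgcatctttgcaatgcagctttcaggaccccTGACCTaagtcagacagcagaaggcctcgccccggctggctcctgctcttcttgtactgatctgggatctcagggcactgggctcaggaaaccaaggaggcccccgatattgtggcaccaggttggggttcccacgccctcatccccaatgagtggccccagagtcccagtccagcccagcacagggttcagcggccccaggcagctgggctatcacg
Ucp3 held 2 core sites, from -149 to -144 and from -44 to -39 relative to the start. Plin2 held 1, from -218 to -213, and Pdk4 held none in this window. Plin5 and Cpt1a also held a core site before the start, at -170 to -165 and at -94 to -89, and Ucp2, Acot1 and Acot2 had no match. On both strands AGGTCA occurs in 16.3% of the 32851 promoter windows of the same length, so a match is common. The motif DR1, a direct repeat of loosely matched core sites, occurs in 0.381% of windows and in none of the members' windows. These matches describe letters and show no binding.

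Libraries held 15.89 to 20.77 M counts in set A and 15.97 to 26.09 M in set B. Levels are given as log2 CPM (counts scaled to library size, CPM), normalised within each set. Levels of the 2 sets are therefore not compared, apart from the nuclear score above, which places set A levels on the scale of set B. Cardiomyocyte markers averaged 12.18 to 12.70 log2 CPM over set B and 11.28 to 12.12 over set A apart from library 489 of C57_wt_ACF, at 9.22. Library 489 also had the highest erythrocyte marker mean, 10.84 against at most 5.11 in the other 23. The mean ACF differences of Ucp3, Ucp2 and Angptl4 are given with and without it. Of 9 adipocyte markers 2 passed the filter in each set, Cidea and Ucp1 in set A and Cidea and Cfd in set B. Cidea had 16 to 330 counts in set A and 316 to 816 in set B. Ucp1 had 0 to 19 in set A and Cfd 0 to 36 in set B. Adiponectin (Adipoq), the defining fat-cell transcript, did not pass, with 0 to 4 counts in set A and 0 to 11 in set B. In these bulk samples, fewer cells of a type and less RNA per cell cannot be told apart. Each title also carries an L with a digit, the L code, whose meaning the labels do not state. It differs within the exchange groups of set B: C3H_WT is L3 throughout and C57_WT L8, whereas C3Hn-C57mt has 4 libraries with L2 and 2 with L3, and C57n-C3Hmt has 4 with L2 and 2 with L8.

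In set B, Ucp3 was 4.20, 4.57 and 4.94 log2 CPM at the lowest, median and highest of C3H_WT. In C3Hn-C57mt it was 4.30, 4.89, 4.09 and 4.92 in the L2 libraries 13 to 16, and 6.36 and 6.70 in the L3 libraries 17 and 18. The L2 libraries of the exchange group lay inside or just under the wild-type range, and libraries 17 and 18 lay far above it. On the C57 nucleus, Ucp3 was 5.05, 5.62 and 6.68 (lowest, median, highest) in C57_WT and 4.36, 4.83 and 5.66 in C57n-C3Hmt, so the groups overlapped.

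Angptl4 had the same split in C3Hn-C57mt. It was 0.82, 1.2, 0.97 and 1.95 log2 CPM in libraries 13 to 16 and 3.97 and 3.87 in libraries 17 and 18, against 1.13, 1.74 and 2.40 (lowest, median, highest) in C3H_WT. On the C57 nucleus it was 1.92, 2.92 and 3.12 in C57_WT and 0.16, 0.84 and 1.37 in C57n-C3Hmt. Every C57n-C3Hmt library lay below every C57_WT library, whichever L code it carried. In the same libraries the share of counts on 3 mitochondrial transcripts (Cytb, Cox2 and Atpase6) was 12.92% to 20.81% in C57n-C3Hmt and 9.08% to 12.55% in C57_WT, without overlap, and the ribosomal transcript Rn45s was 11.83 to 12.55 and 10.96 to 11.98 log2 CPM. Their part in the Angptl4 values was not tested. Angptl4 is a low-count gene here, with 22 to 423 counts per library of set B.

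Pdk4 was the most abundant member by CPM and moved least of the 3. C3H_WT spanned 8.78 to 9.30 log2 CPM with a median of 9.03, and C3Hn-C57mt read 9.28, 9.17, 8.41 and 8.57 in libraries 13 to 16 and 9.52 and 9.96 in libraries 17 and 18. C57_WT spanned 8.47 to 9.38 with a median of 8.57, and C57n-C3Hmt spanned 7.90 to 8.92 with a median of 8.36. Libraries 17 and 18 again stood above all 6 wild-type libraries, and on the C57 nucleus the groups overlapped widely.

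**Figure D1:**
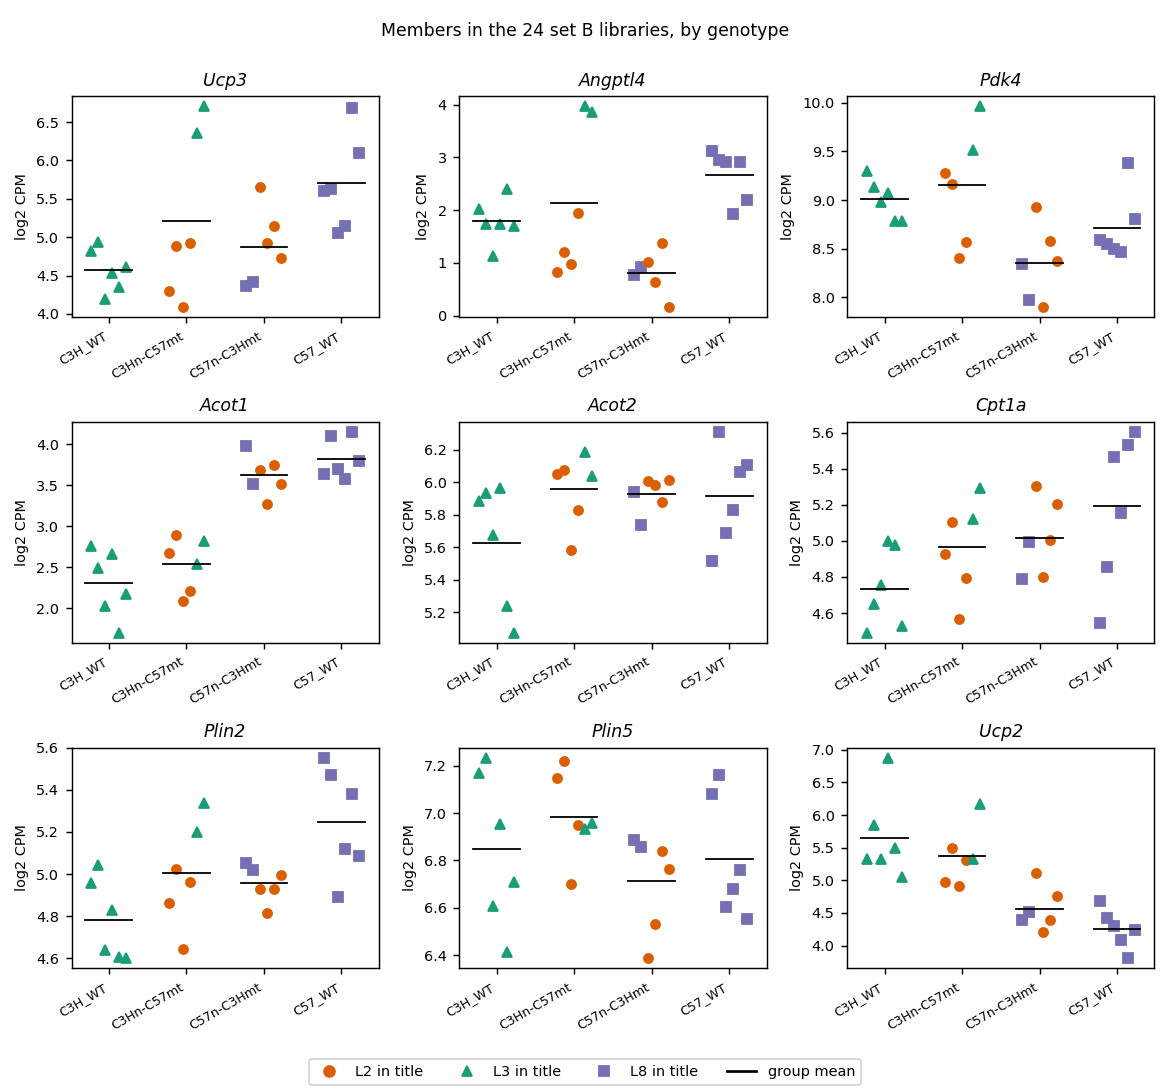
Level (log2 CPM) of each member in the 24 set B libraries, grouped by title, with 1 point per library, marker shape and colour for the L code and a black line for the group mean. In C3Hn-C57mt the 2 L3 libraries stand above the 4 L2 libraries for Ucp3 (6.36 and 6.70 against at most 4.92) and Angptl4 (3.97 and 3.87 against at most 1.95), and Acot1 separates the C3H-nucleus groups from the C57-nucleus groups.

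Written as C3H minus C57 mitochondria, the log2 fold change on the C3H nucleus was -0.97 for Ucp3 (SE 0.36), -0.94 for Angptl4 (SE 0.43) and -0.23 for Pdk4 (SE 0.21), with 6 libraries a group. On the C57 nucleus it was -0.87 for Ucp3 (SE 0.36), -1.92 for Angptl4 (SE 0.47) and -0.36 for Pdk4 (SE 0.21). The other members differed by at most 0.31 downwards in either contrast, and Ucp2, the uncoupling protein also found in immune cells, was the member on the positive side in both (0.37 and 0.31). In each contrast 8 of the 9 members were below 0, with a median of -0.23 on the C3H nucleus (0.00 over all genes) and -0.21 on the C57 nucleus (-0.01 over all genes). Because these contrasts chose the members, their direction is a description. No member separated the 2 groups on the C3H nucleus, where 0.231% of 13395 genes did so downwards and 0.209% upwards. Angptl4 was the 1 member that did so on the C57 nucleus, where 0.269% of genes did so downwards.

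The 2 L codes of C3Hn-C57mt gave different values for the C3H-nucleus contrast. Between the 6 C3H_WT libraries and libraries 17 and 18, all L3, the log2 fold change was -1.94 for Ucp3 (SE 0.17), -2.10 for Angptl4 (SE 0.23) and -0.73 for Pdk4 (SE 0.16). In that contrast 6 of the 9 members, with Acot2, Cpt1a and Plin2 added, had every wild-type library below both exchange libraries, as had 7.73% of all genes. Between C3H_WT and the 4 L2 libraries it was -0.00211 for Ucp3 (SE 0.27), 0.54 for Angptl4 (SE 0.29) and 0.12 for Pdk4 (SE 0.21), and no member separated the groups (0.381% of all genes did so downwards and 0.455% upwards). Inside C3Hn-C57mt itself, Ucp3, Angptl4, Pdk4, Cpt1a and Plin2 were higher in both L3 libraries than in all 4 L2 libraries, against 13% of all genes in that direction.

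On the C57 nucleus the sign was negative under either L code. Between C57_WT and the exchange libraries 7 and 8, all L8, the log2 fold change was -1.43 for Ucp3 (SE 0.41), -1.93 for Angptl4 (SE 0.37) and -0.58 for Pdk4 (SE 0.25), and these 3 members separated the groups (2.41% of all genes did so downwards). With the 4 L2 exchange libraries in their place it was -0.65 for Ucp3 (SE 0.27), -1.91 for Angptl4 (SE 0.30) and -0.26 for Pdk4 (SE 0.21), and Angptl4 separated them (1.34% of all genes did so downwards). The Angptl4 value was close under both L codes, and that of Ucp3 was further from 0 in the L8 libraries. Ucp3 was lower in both L8 libraries of C57n-C3Hmt, 4.36 and 4.42, than in its 4 L2 libraries, at 4.73 to 5.66 (17.1% of all genes were lower without overlap there), while Plin2 and Plin5 were higher in both L8 libraries (19% of all genes).

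**Figure D2:**
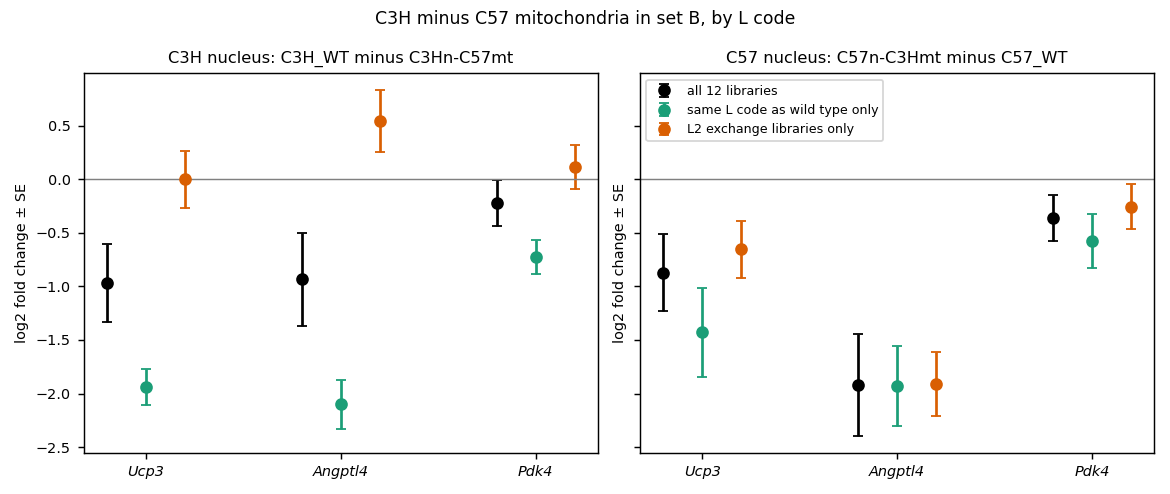
Log2 fold change (C3H minus C57 mitochondria) with its standard error for Ucp3, Angptl4 and Pdk4 in set B, on the C3H nucleus (left) and the C57 nucleus (right), with all 12 libraries (black), with the exchange libraries that share the wild type's L code (green) and with the L2 exchange libraries (orange). On the left the 3 genes are at -0.00211 to 0.54 with the L2 libraries and at -0.73 to -2.10 with the L3 libraries, whereas on the right every point is below 0.

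Markers of other cells were read in the same groups. On the C3H nucleus 0 macrophage, fibroblast and cardiomyocyte markers separated them, and on the C57 nucleus 2 of 9 macrophage markers did, downwards. The median log2 fold change of 9 macrophage markers was 0.74 on the C3H nucleus and -0.695 on the C57 nucleus, that of 8 fibroblast markers 0.51 and -0.39, and that of 10 cardiomyocyte markers -0.15 and 0.04. Libraries 17 and 18 had macrophage marker means of 1.34 and 2.43 log2 CPM and cardiomyocyte marker means of 12.62 and 12.70, so that library 17 had the lowest macrophage mean and library 18 the highest cardiomyocyte mean of set B. The part of these cells in the members' values was not tested.

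The receptors were read in the same groups. Ppara, the receptor that drives fatty acid oxidation genes, was 6.06 to 6.67 log2 CPM in C3H_WT and 5.84 to 6.49 in C3Hn-C57mt, and it was 5.00 to 6.62 in C57_WT and 6.29 to 6.97 in C57n-C3Hmt. Its log2 fold change on the C57 nucleus was 0.51 (SE 0.19), and that of the coactivator Ppargc1a 0.53 (SE 0.17), both opposite in sign to Ucp3 and Angptl4. Ppara was 5.00 and 5.45 in libraries 1 and 2 of C57_WT and 6.11 to 6.62 in its other libraries. In C57n-C3Hmt it averaged 6.30 in the L8 and 6.69 in the L2 libraries. Ppargc1a was 5.57 in library 1 of C57_WT and 7.45 in library 10 of C57n-C3Hmt. On the C3H nucleus the log2 fold change was 0.13 for Ppara (SE 0.19) and -0.20 for Ppargc1a (SE 0.17), the latter with the sign of Ucp3 and Angptl4. Libraries 17 and 18 had the highest Ppargc1a of that nucleus, 6.79 and 7.02 log2 CPM. The part of the receptors in the members' values was not tested. Ppard, Pparg and Rxra differed by at most 0.22 in either contrast. Among 20 receptors and co-regulators, 20 genes of fatty acid supply and lipolysis, 36 other PPAR target genes and 10 genes of the pyruvate dehydrogenase complex and its kinases, none separated the groups in either contrast.

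The nuclear background was compared in set B as the mean of both C3H-nucleus groups minus the mean of both C57-nucleus groups, a contrast that the choice of members did not use. Acot1 was lower on the C3H nucleus, and Ucp2 and Pdk4 were higher. With edgeR (quasi-likelihood F test, Benjamini-Hochberg adjusted p over 13395 genes), 3 of the 9 members passed the threshold of 0.05, 2 higher and 1 lower. Over all genes 35.7% passed, 18.9% higher and 16.8% lower, so the members' share was close to that background. The members' median was -0.12, against 0.01 over all genes.

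Acot1, the cytosolic thioesterase that releases free fatty acids from acyl-CoA, was 1.70, 2.51 and 2.89 log2 CPM (lowest, median, highest of 12) on the C3H nucleus and 3.27, 3.69 and 4.15 on the C57 nucleus. No library of one nucleus reached the range of the other, as for 2.52% of all genes in that direction. The difference was -1.29 on the log2 scale, with SE 0.12 and an edgeR adjusted p of 1.72e-09. Its neighbour Acot2, the mitochondrial form, was 5.07 to 6.18 and 5.52 to 6.31, and differed by -0.12 (SE 0.10; adjusted p by edgeR = 0.40).

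Acot1 and Acot2 lie side by side and share sequence: 527 of the 50-base words of their GENCODE vM21 transcripts are common to both, 13.6% of those of Acot1 and 24.5% of those of Acot2. Acot1 had a fractional expected count in 48 of 48 libraries, so its counts rest in part on how shared reads were divided. In set B, Acot1 took 7.26% to 11.6% of the pair's counts on the C3H nucleus and 13.1% to 21.3% on the C57 nucleus. In set A the shares overlapped, at 6.49% to 13.5% in C3H titles and 9.51% to 43.5% in C57 titles. The division of reads between the copies and a difference in Acot1 itself cannot be told apart from this table.

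Ucp2 was 4.92, 5.33 and 6.88 log2 CPM (lowest, median, highest) on the C3H nucleus and 3.81, 4.39 and 5.12 on the C57 nucleus. The ranges met at the edge, where library 9 of C57n-C3Hmt at 5.12 lay above 3 C3H-nucleus libraries. The difference was 1.18 on the log2 scale, with SE 0.18 and an edgeR adjusted p of 9.06e-06. Ucp2 and Ucp3 are also neighbours, but they share 0 of the 50-base words. Of 9 macrophage markers, 5 were lower and 1 higher on the C3H nucleus (median -0.585), beside 16.8% and 18.9% of all genes. With the L code as a covariate 1 was lower and 0 higher, where 10.4% of all genes passed. The part of these cells in the Ucp2 values was not tested.

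Pdk4 was 8.41, 9.11 and 9.96 log2 CPM on the C3H nucleus and 7.90, 8.52 and 9.38 on the C57 nucleus, a difference of 0.56 with SE 0.15 and an edgeR adjusted p of 0.0048. Plin2, which coats lipid droplets, missed the threshold at -0.21 (SE 0.08, edgeR adjusted p = 0.0501), and so did Cpt1a at -0.27 (SE 0.11, edgeR adjusted p = 0.0566). Both passed under DESeq2. Ucp3 was at -0.30 (SE 0.26), Angptl4 at 0.52 (SE 0.32) and Plin5 at 0.16 (SE 0.10), none past the threshold.

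The L code is tied to the nucleus in set B, since L3 libraries all have a C3H nucleus and L8 libraries a C57 nucleus. Each wild-type group has 1 L code, so a covariate for the L code is estimated inside the exchange groups alone. Such a fit draws on the values that chose the members, and no p is given from it for a member. With this covariate Acot1 was at -1.28. Acot1 also separated the L2 libraries of the 2 exchange groups, where 14% of all genes were lower without overlap (these groups also differ in mitochondria). With the covariate Ucp2 was at 0.62, Pdk4 turned to -0.25, Ucp3 was at -2.25 and Angptl4 at -1.54. For Ucp2, Pdk4, Ucp3 and Angptl4 the nucleus and the L code cannot be told apart.

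The sham libraries of set A allow the nuclear comparison by title, 6 C3H against 6 C57, a comparison added after the data were seen. Acot1 was 0.90 to 2.23 log2 CPM in C3H titles and 1.46 to 3.00 in C57 titles, a difference of -1.07 with SE 0.31 and an edgeR adjusted p of 0.0343. It was the 1 member of 9 that passed, where 8.39% of 13440 genes did, 4.46% higher and 3.93% lower. Acot1 had 25.7 to 115.38 counts per library of set A, which limits its precision. The ranges overlapped here, and leaving out 1 of 10 libraries (464, 467, 482, 483, 485, 6649, 6652, 6658, 6659 or 6695) in turn moved the edgeR adjusted p to between 0.0511 and 0.112. Pdk4 was at 1.16 (SE 0.43, edgeR adjusted p = 0.11) and Ucp2 at 0.80 (SE 0.59, edgeR adjusted p = 0.56). Without library 489, which is no sham library but shares the estimate of spread, Pdk4 was at 1.19 (edgeR adjusted p = 0.0229) and Ucp2 at 0.83 (edgeR adjusted p = 0.0202).

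**Figure D3:**
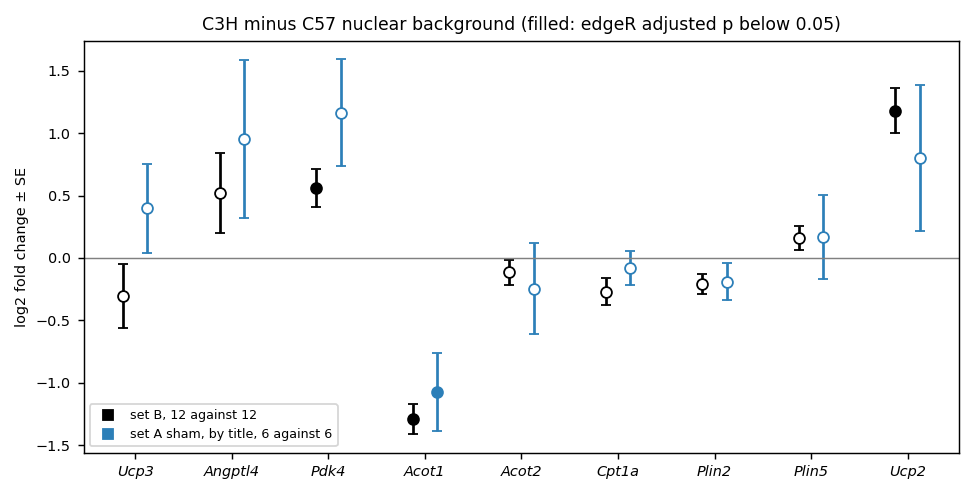
Log2 fold change (C3H minus C57 nuclear background) with its standard error for the 9 members, in set B (black, 12 against 12 libraries) and in the sham libraries of set A by title (blue, 6 against 6), with filled points for an edgeR adjusted p under 0.05. Acot1 is near or below -1 in both, at -1.29 and -1.07, and Ucp2 and Pdk4 are above 0 in both.

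The other genes of the pathway split in both directions between the nuclei of set B. Of 36 other PPAR target genes, 10 were higher and 7 lower on the C3H nucleus (median 0.04), beside 18.9% and 16.8% of all genes. With the L code as a covariate it was 2 higher and 4 lower, where 10.4% of all genes passed, and Acadl and Acaa1a no longer passed (0.30 and -0.41). Acsm5, a medium-chain acyl-CoA synthetase, was higher by 1.26 (SE 0.11, edgeR adjusted p = 5.87e-10) and Acadl, the long-chain acyl-CoA dehydrogenase, by 0.41 (SE 0.09). Acaa1a, a peroxisomal thiolase, was lower, at -0.51 (SE 0.10). In the sham libraries of set A, 3 of these 36 were higher and 3 lower, Acsm5 at 1.61 and Acaa1a at -0.75 among them. Over all genes 4.46% were higher and 3.93% lower there.

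Of 20 genes of fatty acid supply and lipolysis, 8 were higher and 4 lower on the C3H nucleus of set B (median 0.03), beside 18.9% and 16.8% of all genes. With the L code as a covariate it was 4 and 3, or 35% of the list beside 10.4% of all genes. Lpl, the lipoprotein lipase that Angptl4 inhibits, was at -0.66 (SE 0.12, edgeR adjusted p = 5.11e-05) and the triglyceride-forming enzyme Dgat2 at -0.69 (SE 0.08), while the acyl-CoA ligase Acsl3 was at 0.59 and the lipase Mgll at 0.49, and these 4 passed with the covariate too. Of 20 receptors and co-regulators, 3 were higher (Med1 and Ppargc1b among them) and 1 lower (Tbl1xr1), of which Med1 passed with the covariate. Ppara itself was at -0.07 (SE 0.14, edgeR adjusted p = 0.74). Of 10 genes of the pyruvate dehydrogenase complex and its kinases, Pdhx (0.56) and Pdk1 (0.21) were higher and 0 lower, and neither passed with the covariate. The counts of the receptor and pyruvate dehydrogenase lists stand beside 35.7% of all genes. With the covariate 5% and 0% of these lists passed, beside 10.4% of all genes.

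The sham libraries of set A hold the wild-type and exchange comparison again. They are also the sham side of the ACF comparison, whose values were known when the members were chosen. Ucp3 was 5.82, 3.89 and 3.74 log2 CPM in libraries 482, 483 and 485 of C3H_wt sham and 3.83, 4.25 and 4.03 in C3H_MNX sham. Angptl4 was 3.19, 0.31 and 0.23 in the same wild-type libraries and 0.07, 0.81 and 0.78 in C3H_MNX. Pdk4 was 8.79, 7.44 and 6.96, against 7.42, 8.53 and 8.35. Library 482 was the highest of its group in all 3 genes.

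As C3H_wt minus C3H_MNX, the log2 fold change was 0.78 for Ucp3 (SE 0.50), 1.42 for Angptl4 (SE 0.87) and -0.23 for Pdk4 (SE 0.60). Without library 482 it was -0.22, -0.34 and -0.95. The libraries 482 and 489 are the ones with the code L7 in set A. Library 482 had 18.66 M counts and a cardiomyocyte marker mean of 11.67 log2 CPM, and had the lowest Ppara of its group, 5.21 against 6.13 and 6.49. No member passed by edgeR (0.0149% of genes did, 0.00744% in each direction) or by DESeq2. At an unadjusted edgeR p under 0.05 there were 0 members, beside 1.47% of all genes. Acot1 was the member whose groups did not overlap, at 0.90 to 1.26 in C3H_wt and 1.30 to 2.23 in C3H_MNX (5.65% of all genes in that direction, 5.76% in the other).

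On C57 titles, Ucp3 was 3.97, 4.48 and 4.06 log2 CPM in C57_wt sham and 4.11, 3.74 and 3.79 in C57_MNX sham. Angptl4 was -0.65, 0.91 and 0.37, against 0.63, -1.35 and 0.97. The groups overlapped for all 9 members, whereas 5.81% of all genes were higher and 3.98% lower without overlap. As C57_MNX minus C57_wt the log2 fold change was -0.30 for Ucp3 (SE 0.51), 0.04 for Angptl4 (SE 0.93) and -0.43 for Pdk4 (SE 0.60). No member passed by edgeR or DESeq2 (0% of all genes passed edgeR). At an unadjusted edgeR p under 0.05 there were 0 members, beside 2.2% of all genes. Angptl4 had 4 to 195 counts per library of set A, which limits its precision. Between the wild-type and exchange libraries after ACF, 0 members passed on either title (0.0149% and 0% of genes did). At an unadjusted p under 0.05 there was 1 member on C3H titles (Plin2), beside 5.51% of all genes, and 1 on C57 titles (Ucp2), beside 7.95%. The Ucp2 difference was -2.88 with library 489 and 0.61 without it.

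ACF was compared with sham in set A, with the members chosen in the knowledge of these values, so that what follows is a description. Ucp3 had the lowest mean difference of the 9 members. It was 3.97, 4.48 and 4.06 log2 CPM in C57_wt sham and 3.85, 1.17 and 3.56 after ACF. In C3H_MNX it was 3.83, 4.25 and 4.03 after sham and 3.18, 3.13 and 3.47 after ACF. In these 2 titles every ACF library lay below every sham library, as for 3.03% and 4.58% of all genes in that direction. In the other direction no member separated the groups, against 4.11% and 5.1% of all genes.

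In C3H_wt, Ucp3 was 5.82, 3.89 and 3.74 after sham and 2.81, 3.12 and 3.76 after ACF, and 1 ACF library lay inside the sham range (10.4% of all genes were lower without overlap). In C57_MNX it was 4.11, 3.74 and 3.79 after sham and 3.92, 3.44 and 4.18 after ACF, so that the ACF range enclosed the sham range (4.62% of all genes were higher and 3.87% lower without overlap). The log2 fold change was -0.94 in C57_wt (SE 0.51), -1.54 in C3H_wt (SE 0.51), -0.78 in C3H_MNX (SE 0.51) and -0.01 in C57_MNX (SE 0.51). It was -0.46 in C57_wt without library 489 and -0.54 in C3H_wt without library 482. Within a single title 0 genes passed the threshold in all but C3H_MNX (0.00744%). The effect in MNX minus that in wt was 0.93 for C57 titles (SE 0.72) and 0.76 for C3H titles (SE 0.72). Without library 489 the first was 0.46, and without library 482 the second was -0.25.

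The mean ACF difference over the 4 titles was -0.82 for Ucp3 (SE 0.26). It was -0.70 without library 489 and -0.57 without library 482, and -0.45 without both. The count of members past the edgeR threshold was 0 of 9, where 0.275% of 13440 genes passed (0.201% higher, 0.0744% lower), and DESeq2 gave 0 too. The members were chosen with these values known, so nothing is read from this count. The members' median was -0.14, against 0.00 over all genes, with 4 members above and 5 below 0.

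Ucp2 had the largest mean difference, 1.09 (SE 0.41), and it rested on library 489. In C57_wt, Ucp2 was 3.41, 3.93 and 3.57 log2 CPM after sham and 3.41, 8.35 and 3.35 after ACF, where 8.35 is library 489. The C57_wt difference was 3.21 (SE 0.88) with this library and -0.27 without it, and the mean over titles was 0.22 without it. In the same library the marker means of macrophages (4.59 log2 CPM), fibroblasts (6.78) and erythrocytes (10.84) were the highest of set A. Those of the remaining cell types were not. There 4 further members were the lowest of the set, Ucp3 at 1.17, Pdk4 at 4.77, Acot2 at 1.64 and Plin5 at 3.00. The part of other cells in these values was not tested.

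For the other members the mean over titles was 0.08 for Angptl4 (SE 0.44), -0.23 for Pdk4 (SE 0.30), -0.19 for Acot1 (SE 0.22), -0.16 for Acot2 (SE 0.26), 0.13 for Cpt1a (SE 0.10), -0.14 for Plin2 (SE 0.11) and 0.07 for Plin5 (SE 0.24). Pdk4, Acot2 and Plin5 were low in library 489. With 1 library left out in turn, their means spanned -0.482 to -0.0474, -0.273 to -0.031 and -0.0474 to 0.199. Angptl4 was also high in library 489, at 2.57 log2 CPM against -0.02 and -0.78 in the other C57_wt ACF libraries, and its mean difference was -0.38 without that library. In C3H_wt ACF, library 486 was the highest of its group in Pdk4 (9.04 against 6.40 and 7.46), Acot1, Acot2, Cpt1a, Plin2, Plin5 and Ucp2, and in Ucp3. Its glucocorticoid and fasting gene mean was 5.345 log2 CPM, the highest of set A.

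**Figure D4:**
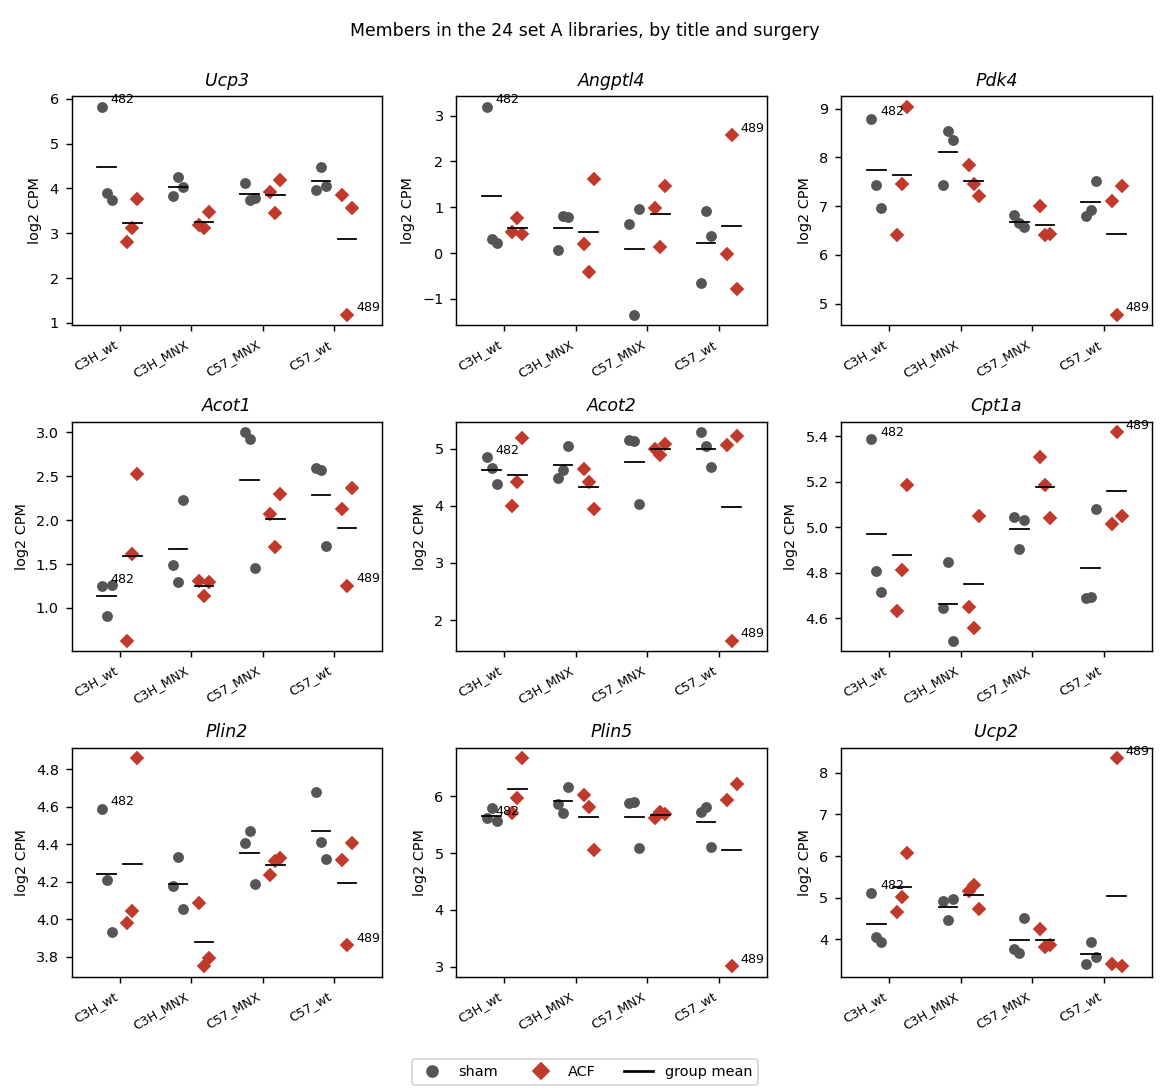
Level (log2 CPM) of each member in the 24 set A libraries, by title, with sham in grey circles, ACF in red diamonds, 3 libraries a group and a black line for the group mean. Library 482 is high in Ucp3 (5.82), Angptl4 (3.19) and Pdk4 (8.79), and library 489 is low in Ucp3 (1.17), Acot2 (1.64) and Plin5 (3.00) and high in Ucp2 (8.35).

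**Figure D5:**
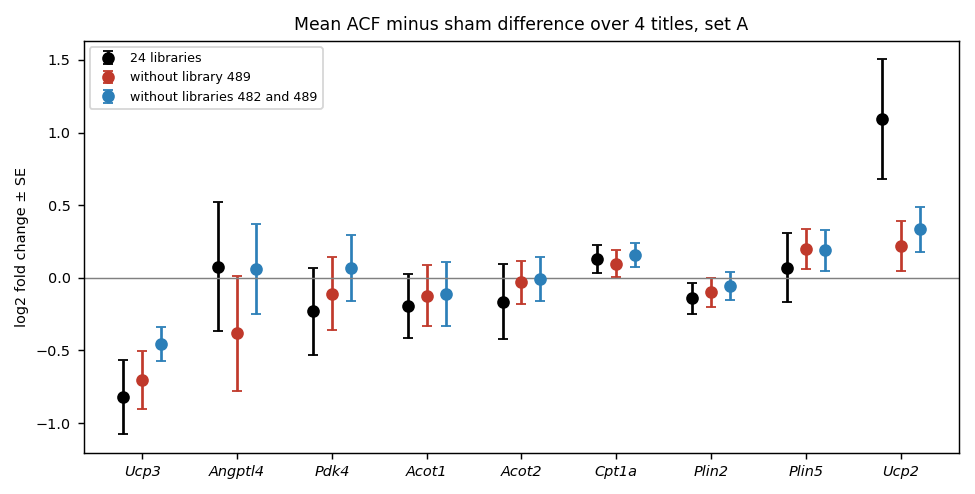
Mean log2 fold change (ACF minus sham, over 4 titles) with its standard error for the 9 members, with 24 libraries (black), without library 489 (red) and without libraries 482 and 489 (blue). Ucp2 moves from 1.09 to 0.22 without library 489, and Ucp3 is below 0 in all 3 fits, at -0.82, -0.70 and -0.45.

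None of the 20 receptors and co-regulators, 20 supply and lipolysis genes, 36 other PPAR targets and 10 pyruvate dehydrogenase genes passed for the mean ACF difference (medians -0.02, -0.03, -0.09 and -0.07). These medians include library 489. Its mean was 3.63 log2 CPM over the other PPAR targets (at least 5.00 in the other libraries) and 3.82 over the pyruvate dehydrogenase genes (at least 5.82). Ppara was at 0.13 (SE 0.25), Ppargc1a at 0.20 (SE 0.20) and Rxra at -0.17 (SE 0.08), none past the threshold. Of 28 genes of the glucocorticoid and fasting response, 2 were higher and 1 lower (median 0.32), beside 0.201% and 0.0744% of all genes. Their median was 0.54 in C57_wt, 0.49 in C3H_wt, 0.16 in C3H_MNX and -0.08 in C57_MNX. The gene lists too were chosen with earlier results known, so these values are a description. Cdkn1a, an inhibitor of the cell cycle, was at 1.33 (SE 0.27) and Gadd45a, a stress-response gene, at -0.64 (SE 0.10).

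The genes whose levels were most like the mean of the standardised Ucp3, Angptl4 and Pdk4 levels over the 24 libraries of set B were Engase (Pearson r = 0.75), Ehhadh (0.69), Tbc1d19 (0.69), Trim68 (0.69), Lgals8 (0.69), Slc25a22 (0.69), Wdr43 (0.68) and Mnat1 (0.67). Ehhadh encodes the peroxisomal bifunctional enzyme of fatty acid oxidation. Of the other members Plin2 ranked 24 of 13395 (r = 0.60), Cpt1a 500 (r = 0.40) and Acot2 1279 (r = 0.32). Plin5 ranked 2763 (r = 0.21), Ucp2 2955 (r = 0.20) and Acot1 5168 (r = 0.08). Over the 24 libraries of set A the leading genes were Slc40a1 (0.76), Hbp1 (0.67), Cecr2 (0.67), Etl4 (0.67), Pnpla7 (0.67), Pfkfb1 (0.66), Pm20d1 (0.66) and Tapt1 (0.65). There Acot2 ranked 853 of 13440 (r = 0.38), Plin2 927 (r = 0.38), Plin5 1637 (r = 0.32) and Cpt1a 4195 (r = 0.18). Acot1 ranked 7519 (r = -0.02) and Ucp2 8245 (r = -0.06). The points share groups, L codes and, in set A, library 489, so these values describe likeness only.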

How the data were processed

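RNA was measured in 48 libraries of mouse cardiomyocytes. The authors deposited 1 table of RSEM expected counts per gene, not normalised, of which 13.9% of values were not whole. Per the submitters' processing notes, CASAVA 1.8.2, Bowtie, RSEM 1.2.0 and the build mm9 were used; per the labels' protocols a stranded mRNA kit was used, and the provider's own mapping algorithm is named as well, so it is unclear which produced the deposited values. RSEM divides reads shared by similar genes, which makes near copies uncertain. There were 0 columns of other samples and 0 rows without a gene.

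Counts were rounded and fitted per set in R 4.3.3 with edgeR 4.0.16 (quasi-likelihood F test, TMM, filterByExpr with the groups, p-values adjusted by Benjamini-Hochberg over 13440 genes in set A and 13395 in set B, threshold 0.05). Set A was fitted as 8 group means, set B as 4. The standard error is the size of the log2 fold change divided by the square root of F. Levels in log2 CPM used a prior count of 2. The script was tested on simulated data. Libraries of a group were compared pairwise, and over 84 pairs chi-square divided by its degrees of freedom was never under 3.858.

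The members and gene lists were chosen with earlier results of these data known. Besides the 9 members, the named genes are up to 4 per list, those of largest change past the threshold whose mean log2 CPM reached 2, a fixed set of receptors, and the 8 genes most like the lead trio in each set. Alternatives were no filter, size factors of DESeq2 1.42.0 in the same fit, DESeq2 itself, the L code as a covariate or 1 L code at a time, each library left out and, added after seeing the data, libraries 482 and 489 left out together, L2 exchange libraries alone, the strain score, the title comparison, the list counts with the L code and the Ucp2 difference after ACF without library 489. Sequences come from RefSeq on GRCm38.p6. Some genes the rule names are not reported here.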

Additional observations from a re-analysis of the deposited data

Results flagged for a closer look

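In C57_WT of set B, library 5 stood apart in Pdk4, at 9.38 log2 CPM against 8.81 in the next highest library. The gap was 0.628 of the group's whole range, the 1 such case among 36 combinations of a member and a set B group. Chance gives about 1 in 20 groups. The same library had the highest Ucp3 of its group, 6.68 log2 CPM, and an Angptl4 of 2.92, within the range of the other libraries.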

How the results depend on the processing

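No paired analysis was possible because the replicate numbers name libraries and no number is shared between groups. Most values kept their direction and their side of the threshold. The cause was not tested for the exceptions that follow. With the L code as a covariate, the set B mitochondrial difference on the C3H nucleus was -1.95 for Ucp3, -2.1 for Angptl4 and -0.735 for Pdk4. Within L3 alone it was -1.94, -2.1 and -0.726. These 2 settings are in effect the same comparison, because C3H_WT is L3 throughout and both rest on the L3 libraries of C3Hn-C57mt. With the L2 exchange libraries it was -0.00211 for Ucp3 and 0.539 for Angptl4. The covariate also turned the nuclear difference of Angptl4 to -1.54 and of Pdk4 to -0.249, the mean ACF difference of Plin5 to -0.0445, that of Ucp3 in C57_MNX to 0.261, and the sham difference of Angptl4 to -0.972 on C3H and -0.291 on C57 titles.

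The number of members called for the nuclear difference was 5 with DESeq2 and 5 with its size factors, and 3 to 5 when 1 library was left out (5 without library 18 or 10). Over all genes the calls also moved, to 4456 to 5266 with 1 library left out and 1399 to 5121 under the other settings. For the title comparison the number of members was 2 with DESeq2, 0 with the L code and 0 to 3 with 1 library left out. Over all genes it was 998 to 1886 under the other settings and 897 to 2083 with 1 library left out. For ACF in C57_wt it was 0 to 1 members with 1 library left out, beside 0 to 874 of all genes. Without libraries 482 and 489 the mean ACF difference of Pdk4 was 0.0687, that of Ucp2 in C57_wt -0.279, the MNX minus wt difference 0.225 for Ucp2 on C57 and -0.247 for Ucp3 on C3H titles, and the C3H sham difference -0.223 for Ucp3 and -0.34 for Angptl4.

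With 1 library left out, the mean ACF difference spanned -0.381 to 0.516 for Angptl4 and -0.0474 to 0.199 for Plin5. The ACF difference spanned -0.265 to 3.74 for Ucp2 in C57_wt, -0.2 to 0.269 for Ucp2 and -0.186 to 0.168 for Ucp3 in C57_MNX. The MNX minus wt difference spanned -0.248 to 1.09 for Ucp3 on C3H and -3.79 to 0.224 for Ucp2 on C57 titles. The sham difference spanned -0.224 to 1.12 for Ucp3, -0.343 to 1.86 for Angptl4 and -0.954 to 0.0931 for Pdk4 on C3H titles, and -0.42 to 0.499 for Angptl4 on C57 titles.

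Over all genes, the 37 called for the mean ACF difference became 244 with DESeq2, 73 without both libraries and 12 to 174 with 1 left out. The 4776 of the nuclear difference became 1399 with the L code, and the 1128 of the title comparison 1886 without both libraries and 897 to 2083 with 1 left out. Within titles, the 0 genes called for ACF in C57_wt became 176 with DESeq2, 1 without both libraries and up to 874 with 1 left out, the 0 in C3H_wt became 83, 1 and up to 69, the 0 in C57_MNX became 1 with DESeq2, and the 1 in C3H_MNX became 3 with DESeq2 and 0 with the L code. For wt against MNX on C3H titles, DESeq2 called 7 genes after sham and 15 after ACF, against 2 and 2, and the L code left 0 in each.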
